A study of Mus musculus with 6 samples.

Results

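Malat1, Neat1, Meg3, Rian, Mirg, Miat, Snhg11 and Kcnq1ot1, 8 long noncoding RNAs, were followed across 6 libraries of mouse hippocampus. They were chosen by gene symbol from a table of 55414 genes, as nuclear-retained or imprinted RNAs of neurons, and all 8 symbols stood once in it. The treatment was CerM in 3 libraries and vehicle in the other 3, within a study of ceramides and the gut microbiota in depression caused by corticosterone. What CerM stands for, how it was given, and the strain, sex and age of the animals are not given in the sources used here, nor is whether all groups also received corticosterone. Titles number the libraries as biological replicates but do not assign each to its own animal, and a p-value then covers only the spread among these 6 samples, which may be technical. Values are in TPM, a unit of transcript abundance that corrects reads for transcript length and sets every library to the same total. Levels of different genes can then be compared only as far as library preparation captured them alike, which was not tested. Sequencing depth is not retained in TPM and is unknown.

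Most messenger RNAs leave the nucleus to be translated, whereas the RNAs described here are known to act or to be retained within it. Malat1 collects in nuclear speckles, bodies rich in splicing factors, and its neighbour Neat1 is the scaffold of paraspeckles. Meg3, Rian and Mirg are expressed from the maternal chromosome of the imprinted Dlk1-Dio3 domain, where Rian carries small nucleolar RNAs and Mirg carries microRNAs. Miat, also called Gomafu, forms its own nuclear domain in neurons and binds splicing factors. Snhg11 is a host gene of small nucleolar RNAs with a strong expression in neurons. Kcnq1ot1 is transcribed antisense to Kcnq1 from the paternal chromosome and silences its neighbours in cis.

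Start regions are shown for Meg3 and Snhg11, and for Malat1, the best known speckle RNA. Among genes with a mean of at least 10 TPM, Meg3 and Snhg11 were each nearest to the other in pattern across the libraries. Each window runs from 250 bases before to 50 bases after a RefSeq transcription start on GRCm38.p6, 5′ to 3′ on the strand of the gene. The expression table was made on another build, GRCm39, so the windows were matched by symbol. RefSeq windows were matched for 7 of the 8 genes, and of 2 windows for Meg3 the upstream one is shown. Capitals mark matches on either strand to the letters TGACGTCA (the cyclic AMP response element), TATAAA (the TATA box), CCAAT and GGGCGG (a GC box).
Meg3, chr12:109540746-109541045, plus strand: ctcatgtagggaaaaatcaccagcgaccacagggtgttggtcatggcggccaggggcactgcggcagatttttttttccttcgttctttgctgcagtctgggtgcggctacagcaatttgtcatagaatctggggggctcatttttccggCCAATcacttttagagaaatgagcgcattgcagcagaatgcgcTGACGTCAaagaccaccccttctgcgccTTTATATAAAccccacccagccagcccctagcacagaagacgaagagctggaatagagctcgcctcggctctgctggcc
Snhg11, chr2:158375463-158375762, plus strand: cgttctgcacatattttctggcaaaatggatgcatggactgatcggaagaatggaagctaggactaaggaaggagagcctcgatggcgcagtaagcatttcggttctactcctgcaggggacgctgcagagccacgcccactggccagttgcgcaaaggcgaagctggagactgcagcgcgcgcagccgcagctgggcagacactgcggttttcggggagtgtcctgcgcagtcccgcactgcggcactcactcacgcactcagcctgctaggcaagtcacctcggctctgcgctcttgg
Malat1, chr19:5802623-5802922, minus strand: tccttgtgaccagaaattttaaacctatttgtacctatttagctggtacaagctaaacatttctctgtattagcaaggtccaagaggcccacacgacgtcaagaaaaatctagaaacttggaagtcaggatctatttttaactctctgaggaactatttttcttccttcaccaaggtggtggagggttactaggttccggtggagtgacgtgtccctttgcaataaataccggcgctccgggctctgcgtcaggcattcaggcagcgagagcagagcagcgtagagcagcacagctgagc

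The Meg3 window holds 1 match to TGACGTCA, which starts 57 bases before the transcription start. It also holds 1 CCAAT and a pair of TATAAA matches, 1 on each strand, that overlap by 2 bases. Of 32851 windows of this length, 1.79% hold TGACGTCA, 13.6% hold TATAAA, 37.4% hold CCAAT and 35.7% hold GGGCGG. The Snhg11 and Malat1 windows hold none of the 4 motifs. GC content was 53.7% for Meg3, 60.0% for Snhg11 and 47.0% for Malat1, beside a median of 52.7% over all windows. A match is a description of letters and not evidence of a bound factor.

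The annotated span of Mirg holds 14 microRNA genes with 26 mature microRNAs in RefSeq, that of Rian 3 microRNA genes and that of Meg3 2. The mature microRNAs of Mirg carry 25 different seeds (bases 2 to 8, in capitals below). The only pair with the same seed is shown first, followed by miR-134-5p, a regulator of dendritic spines, and by miR-410-3p from the same host.
mmu-miR-453: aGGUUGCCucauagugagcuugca
mmu-miR-496a-5p: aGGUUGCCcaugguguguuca
mmu-miR-134-5p: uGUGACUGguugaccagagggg
mmu-miR-410-3p: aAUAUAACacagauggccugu

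None of these small RNAs had a measured level of its own in the table. All 14 microRNA rows within the span of Mirg were listed at 0 TPM in every library, as were the 11 small RNA rows within Rian (8 small nucleolar RNAs and 3 microRNAs), the 2 microRNA rows within Meg3 and the 2 small nucleolar RNA rows within Snhg11. The values below therefore describe the long host transcripts. A match of rows to hosts was made by gene identifier in GENCODE vM21.

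The 8 RNAs covered a wide range of levels, and Kcnq1ot1 was not abundant. Means over the 6 libraries were 364 TPM for Rian, 139 for Malat1, 98.2 for Snhg11, 79.1 for Meg3, 27.8 for Neat1, 22.4 for Miat, 9.25 for Mirg and 0.092 for Kcnq1ot1. Rian stood above Malat1 in 6 of 6 libraries with no overlap of their ranges, and Mirg stood above Kcnq1ot1 in the same way. Ranges overlapped between every other pair of neighbours in this order, although within single libraries the higher gene was higher in 6 of 6 for all of them except Neat1 against Miat (5 of 6). The level of Rian exceeded that of 97.3% of the 14916 genes with a mean of at least 1 TPM, which were the genes tested, and that of Mirg exceeded 39.0%. Together the 8 RNAs held 0.0591%, 0.101% and 0.0758% of the TPM in CerM replicates 1 to 3 and 0.0835%, 0.0751% and 0.0521% in vehicle replicates 1 to 3. Rian alone accounted for 43.8% to 63.5% of that sum. Whether the RNAs were in the nucleus cannot be read from total RNA of tissue.

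**Figure D1:**
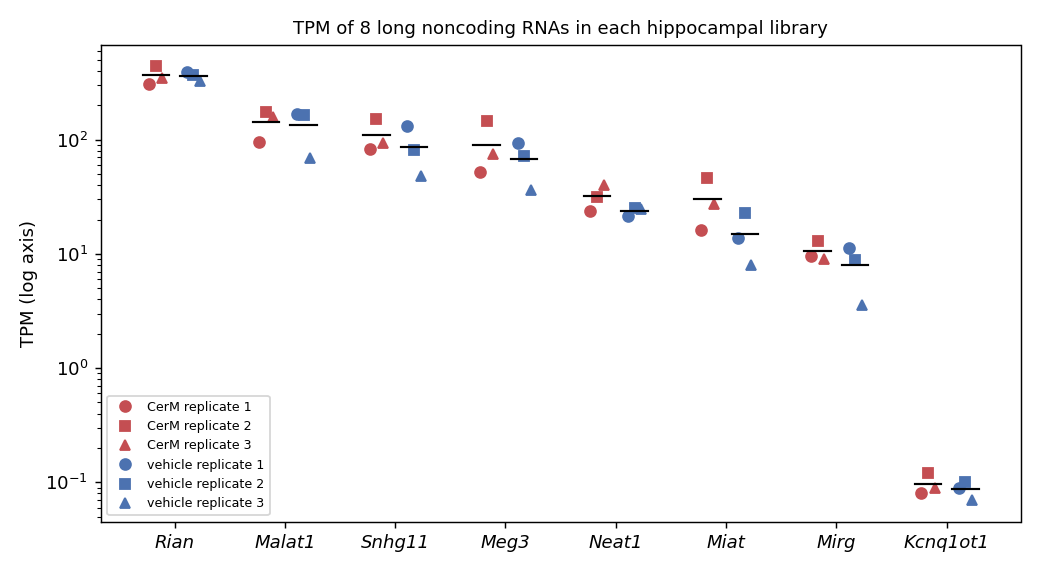
TPM of each RNA on a log axis, ordered by mean level. Points are single libraries (red CerM, blue vehicle, 1 symbol per replicate number) and black bars are group means. Rian lies highest, Kcnq1ot1 lies at about 0.1 TPM, and the groups overlap for all 8 genes.

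None of the 8 RNAs separated CerM from vehicle hippocampus. The groups overlapped for 8 of 8, beside 7.3% of tested genes whose groups did not overlap. Limma called 0 of the 7 tested members at an adjusted p below 0.05, and called 0% of all tested genes. At an unadjusted p below 0.05 it had 0 of the 7 members and 402 of all genes (2.7%). Of the 7 log2 fold changes (CerM over vehicle, on TPM + 1) 6 lay above 0, with a median of 0.39, beside a median of 0.03 and 58.8% above 0 over all tested genes. The 95% confidence intervals lay within 2-fold for 2 of the 7 members, Neat1 and Rian, and for 90.2% of all tested genes, so these libraries bound the members less tightly than most genes.

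**Figure D2:**
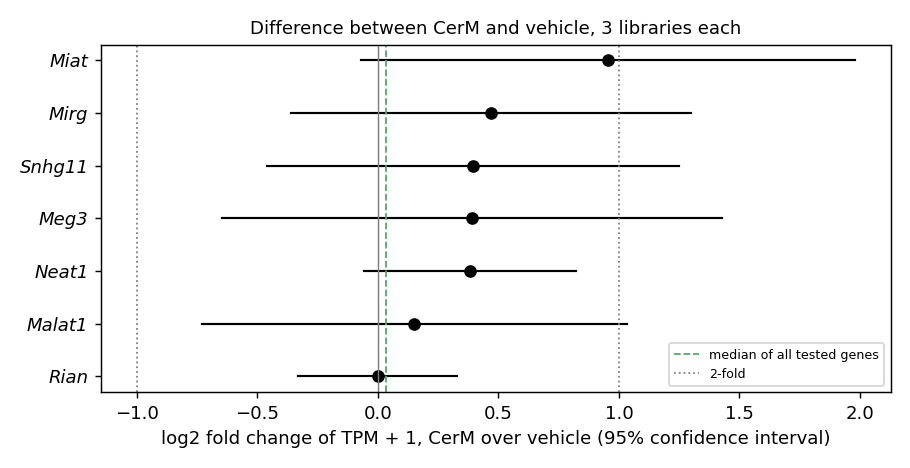
Log2 fold change of TPM + 1 for the 7 tested RNAs (points) with 95% confidence intervals of the limma fit (lines), 3 libraries per group. All intervals include 0, and those of Miat, Mirg, Snhg11, Meg3 and Malat1 reach past the dotted 2-fold line on the right.

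Malat1 (ENSMUSG00000092341, chromosome 19), the speckle RNA, stood at 95.02, 176 and 159 TPM in CerM replicates 1 to 3 and at 169, 166 and 69.0 TPM in vehicle replicates 1 to 3. CerM replicate 1 and vehicle replicate 3 lay well below the other 4 libraries, which lay close together. Group means were 143 ± 42.7 and 135 ± 56.8 TPM (SD, n = 3 each). The log2 fold change was 0.15 ± 0.38 (SE), with a 95% confidence interval of −0.73 to 1.03 and an adjusted p of 0.99 in limma. Its direction turned to −0.02 without CerM replicate 2 and to −0.27 without vehicle replicate 3, and ran from 0.053 (without CerM replicate 3) to 0.42 (without CerM replicate 1) without each of the other 4.

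Neat1 (ENSMUSG00000092274, chromosome 19), the paraspeckle scaffold, stood at 23.7, 31.6 and 40.2 TPM in CerM and at 21.3, 25.4 and 24.5 TPM in vehicle. CerM replicates 2 and 3 lay above all vehicle libraries, and CerM replicate 1 lay among them. The log2 fold change was 0.38 ± 0.19 (SE), with a 95% confidence interval of −0.06 to 0.82, an unadjusted p of 0.0803 and an adjusted p of 0.989 in limma. The highest value came from CerM replicate 3, the library that also held transcripts of fat cells. In it Cfd, the adipocyte gene for adipsin, stood at 409 TPM and is listed at 0 in the other 5, and 8 adipocyte markers summed to 843 TPM against 0.95 to 2.53 TPM. Without that library the log2 fold change of Neat1 was 0.20, and the part of fat tissue in it was not tested. The table gives 1 row per gene, so the short and long forms of Neat1 could not be told apart.

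The RNAs of the Dlk1-Dio3 domain varied to very different extents across the libraries. Meg3 (ENSMUSG00000021268, chromosome 12), the first gene of the maternal noncoding cluster, stood at 51.7, 146 and 74.4 TPM in CerM and at 93.8, 72.6 and 36.1 TPM in vehicle. CerM replicate 2 was the highest and vehicle replicate 3 the lowest, 4.04-fold apart, and each group covered the middle of the other. Its log2 fold change was 0.39 ± 0.44 (SE), with a 95% confidence interval of −0.65 to 1.43 and an adjusted p of 0.989 in limma. It was −0.02 without CerM replicate 2, 0.00 without vehicle replicate 3, 0.72 without CerM replicate 1 and 0.68 without vehicle replicate 1.

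Rian (ENSMUSG00000097451, chromosome 12), the host of small nucleolar RNAs farther along the cluster, stood at 308, 439 and 349 TPM in CerM and at 390, 369 and 329 TPM in vehicle. The highest and lowest values, both in CerM, were 1.43-fold apart, and all vehicle libraries lay between them. Its log2 fold change was −0.00 ± 0.14 (SE), with a 95% confidence interval of −0.33 to 0.33 and an adjusted p of 0.999 in limma.

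Mirg (ENSMUSG00000097391, chromosome 12), the microRNA host, stood at 9.56, 13.0 and 9.07 TPM in CerM and at 11.4, 8.88 and 3.6 TPM in vehicle. Vehicle replicate 3 lay below the other 5 libraries, which ran from 8.88 to 13.0 TPM. Its log2 fold change was 0.47 ± 0.35 (SE), with a 95% confidence interval of −0.36 to 1.30 and an adjusted p of 0.989 in limma. Without vehicle replicate 3 it was 0.048, and without vehicle replicate 1 it was 0.76.

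Miat (ENSMUSG00000097767, chromosome 5), the neuronal splicing-factor binder, had the widest spread, at 16.2, 46.2 and 27.6 TPM in CerM and at 13.9, 22.7 and 8.05 TPM in vehicle. Its highest and lowest libraries, CerM replicate 2 and vehicle replicate 3, were 5.74-fold apart. CerM replicate 1 lay below vehicle replicate 2, so the groups overlapped. It also had the largest log2 fold change of the 7, at 0.95 ± 0.44 (SE), with a 95% confidence interval of −0.07 to 1.98, an unadjusted p of 0.0641 and an adjusted p of 0.989 in limma. With sample weights, which give less weight to variable libraries, it was 0.33, below that of Neat1 (0.45). The value was 0.59 without CerM replicate 2 and 0.60 without vehicle replicate 3.

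Snhg11 (ENSMUSG00000044349, chromosome 2), the neuronal small nucleolar RNA host, stood at 83.7, 150 and 94.2 TPM in CerM and at 131, 82.1 and 48.1 TPM in vehicle. CerM replicate 2 and vehicle replicate 1 were the highest libraries and vehicle replicate 3 the lowest. Its log2 fold change was 0.39 ± 0.36 (SE), with a 95% confidence interval of −0.46 to 1.25 and an adjusted p of 0.989 in limma. It was 0.14 without CerM replicate 2, 0.03 without vehicle replicate 3 and 0.74 without vehicle replicate 1. GENCODE vM21 types this gene as protein coding, whereas the other 7 carry noncoding types.

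Kcnq1ot1 (ENSMUSG00000101609, chromosome 7), the imprinted antisense RNA, stood at 0.08, 0.12 and 0.09 TPM in CerM and at 0.09, 0.10 and 0.07 TPM in vehicle. It was the only member below the minimum of 1 TPM and was not tested. Its single annotated transcript is 93092 bases long, and TPM divides by length. With 2 decimals in the table, these values differ by only a few of the smallest steps that can be written. The sense gene Kcnq1, a potassium channel, stood at 0.24 to 0.46 TPM, and since strand-specific counting is not stated, reads of this overlapping pair may not have been told apart.

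The larger differences lay between single libraries and not between treatments. CerM replicate 2 had the highest value for 7 of the 8 RNAs, all except Neat1, and vehicle replicate 3 had the lowest for 6 of 8, all except Rian and Neat1. Over all tested genes CerM replicate 2 was highest in 41.1%, vehicle replicate 3 was lowest in 9.25%, and both held at once in 2.87%. Both held at once for 6 of the 8 RNAs, Kcnq1ot1 with its coarse values included. Relative to the mean of the 6 libraries on the log2(TPM + 1) scale, vehicle replicate 3 stood at −1.18 for Miat, −1.08 for Mirg, −0.98 for Meg3, −0.93 for Snhg11 and −0.92 for Malat1, but at −0.14 for both Rian and Neat1. CerM replicate 2 stood at 1.203 for Miat, 1.01 for Meg3 and 0.70 for Snhg11, and at 0.28 for Rian.

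The spread over the 6 libraries was large for 5 of these RNAs. The SD of log2(TPM + 1) was 0.82 for Miat, 0.68 for Meg3, 0.57 for Snhg11, 0.56 for Mirg and 0.56 for Malat1, where the median over all tested genes was 0.19. Between 94.0% (Malat1) and 97.0% (Miat) of tested genes had a smaller SD. Neat1 had an SD of 0.32 (81.5% of genes were below it) and Rian one of 0.18 (48.0%).

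**Figure D3:**
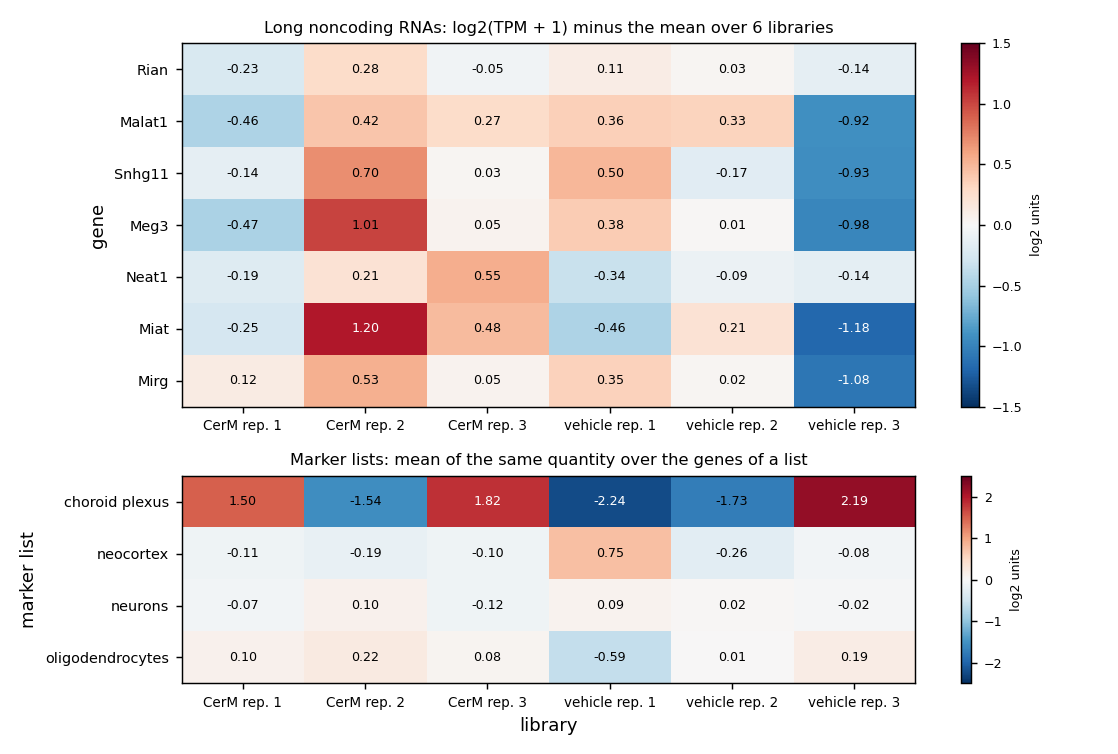
Upper panel, log2(TPM + 1) of 7 RNAs in each library minus the mean over the 6 libraries. Lower panel, the mean of the same quantity over the genes of 4 marker lists. Red is above the mean and blue below. CerM replicate 2 is red for all 7 RNAs, vehicle replicate 3 is blue for all 7, and the choroid plexus list is at 1.502 to 2.19 in 3 libraries and at −2.24 to −1.54 in the other 3.

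Markers of other tissues and cell types also set libraries apart. All 13 markers of hippocampal excitatory neurons were present at 1 TPM or more on average, among them Slc17a7, the vesicular glutamate transporter, at 699 to 830 TPM. The choroid plexus, a secretory epithelium next to the hippocampus, was represented unequally. Its 8 markers summed to 9342, 10992 and 15777 TPM in CerM replicates 1 and 3 and vehicle replicate 3, and to 254 to 308 TPM in the other 3 libraries. Ttr, its transthyretin gene, stood at 15417 TPM in vehicle replicate 3 and at 244 TPM in vehicle replicates 1 and 2. The 8 tested neocortex markers scored 0.75 in vehicle replicate 1 and −0.26 to −0.08 elsewhere. Vehicle replicate 1 also scored −0.61 for the excitatory neuron list, against 0.02 to 0.27 in the other 5 libraries, and −0.59 for oligodendrocytes, against 0.01 to 0.22. Log2 fold changes lay above 0 for all 10 oligodendrocyte markers (median 0.25) and all 7 of oligodendrocyte precursors (0.16). The same held for all 8 of choroid plexus (1.12) and all 7 tested of adipocytes (2.02). They lay above 0 for 0 of 8 tested neocortex markers (−0.26) and 0 of 4 tested pituitary markers (−0.62), beside 58.8% of all tested genes. Limma called 0 in each of these lists, and the other cell type lists held both directions. Pituitary transcripts were highest in vehicle replicate 1, with the growth hormone gene Gh at 124 TPM against 3.33 to 80.0 TPM. The 10 markers of neurons in general each had an SD of log2(TPM + 1) between 0.09 and 0.21. Genes of mitochondrial DNA held 10.5% of TPM in CerM replicate 2 and 11.5% in vehicle replicate 3, and 13.2% to 15.9% in the other 4. In bulk tissue, fewer cells of a type and less RNA per cell cannot be told apart.

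Rian and Malat1 were lower in each library rich in choroid plexus transcripts than in each of the other 3, as were 6.99% of tested genes. Rian stood at 308, 349 and 329 TPM in the rich libraries and at 369 to 439 TPM in the others, and Malat1 at 95.02, 159 and 69.0 against 166 to 176 TPM. For Meg3 the ranges just overlapped, at 36.1 to 74.4 against 72.6 to 146 TPM. Ranges also overlapped for Snhg11, at 48.1 to 94.2 against 82.1 to 150 TPM, and for Mirg, at 3.6 to 9.56 against 8.88 to 13.0 TPM. Miat stood at 8.05 to 27.6 against 13.9 to 46.2 TPM, with vehicle replicate 1 below CerM replicates 1 and 3. Neat1 did not follow this order either, with its highest value in the rich CerM replicate 3. The part of choroid plexus in these levels was not tested.

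With the choroid plexus score as a covariate, a setting chosen after the data were seen, most fold changes were larger. The log2 fold changes were 1.27 for Miat, 0.76 for Meg3, 0.76 for Mirg, 0.70 for Snhg11, 0.44 for Malat1, 0.36 for Neat1 and 0.09 for Rian. Unadjusted p-values from limma were 0.00386 for Miat, 0.0039 for Mirg, 0.00411 for Snhg11 and 0.00529 for Meg3, so that 4 of 7 members were below 0.05, beside 2.54% of all tested genes. The adjusted p of all 7 was 0.9998, and limma called 0 genes, with 379 at an unadjusted p below 0.05. With the neocortex score as the covariate instead, also chosen after the data were seen, 0 of 7 members were below an unadjusted 0.05, beside 1.73% of tested genes. The log2 fold changes there were 0.87 for Miat, 0.66 for Mirg, 0.64 for Snhg11 and 0.56 for Meg3, each with an adjusted p of 0.9999 in limma. Leaving out the 3 libraries rich in choroid plexus left CerM replicate 2 against vehicle replicates 1 and 2. There the lone CerM sample was assumed to vary like the vehicle samples, and the log2 fold changes were 1.33 for Miat, 0.81 for Meg3 and 0.07 for Malat1, with adjusted p-values of 0.517, 0.517 and 0.743. The median of all genes was then 0.16.

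Ratios within a library were taken for transcripts of 1 domain or of adjacent genes, as the log2 ratio of TPM + 1, and compared by two-sided exact permutation tests, for which the smallest possible p with 3 against 3 is 0.1. Rian exceeded Meg3 by 5.95, 3.01 and 4.69-fold in CerM replicates 1 to 3 and by 4.16, 5.08 and 9.11-fold in vehicle replicates 1 to 3. The lowest ratio was that of CerM replicate 2 and the highest that of vehicle replicate 3. Group means of the log2 ratio were 2.12 ± 0.49 for CerM against 2.51 ± 0.57 for vehicle (SD, n = 3 each, exact permutation p = 0.5).

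The log2 ratio varied less across the 6 libraries for Mirg to Meg3 (SD 0.34) than for Rian to Meg3 (SD 0.52). The Mirg to Meg3 ratio was 0.185, 0.0894 and 0.122 in CerM and 0.121, 0.122 and 0.0997 in vehicle. The SD of the log2 ratio of TPM + 1 was 0.06 in vehicle against 0.53 in CerM. The added 1 weighs on Mirg, which stood at 3.6 TPM in vehicle replicate 3. The plain ratio of that library lay below those of vehicle replicates 1 and 2. The difference of 0.08 between the group means had an exact permutation p of 0.8 (n = 3 each) and turned to −0.20 without CerM replicate 1. The Mirg to Rian ratio was 0.0311, 0.0297 and 0.0260 in CerM and 0.0292, 0.0241 and 0.0109 in vehicle, with vehicle replicate 3 apart from the rest (exact permutation p = 0.2, n = 3 each).

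Neat1 and Malat1, adjacent genes on chromosome 19, did not keep a fixed ratio. Neat1 stood at 0.249, 0.180 and 0.253 of the Malat1 level in CerM and at 0.126, 0.153 and 0.355 in vehicle. Vehicle replicates held both the lowest and the highest ratio, and the exact permutation p was 0.8 (n = 3 each). The Kcnq1ot1 to Kcnq1 ratio was 0.333, 0.364 and 0.196 in CerM and 0.321, 0.263 and 0.175 in vehicle (exact permutation p = 0.9, n = 3 each). Both genes stood below 1 TPM, so the added 1 outweighed them in the log2 ratio that was tested. That p therefore does not describe the plain ratios given here. Adjusted over the 5 ratios, every p was 0.9.

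**Figure D4:**
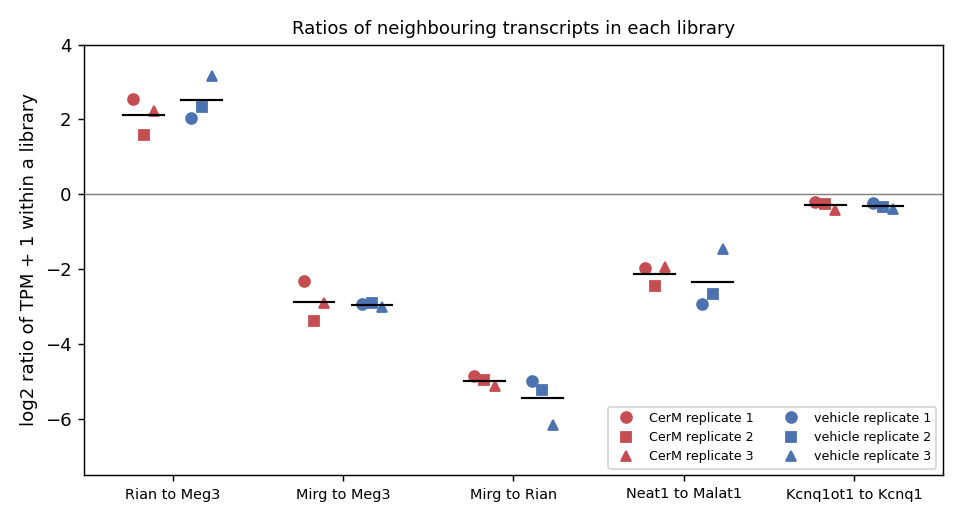
Log2 ratio of TPM + 1 of 2 transcripts within each library. Points are single libraries (red CerM, blue vehicle, 1 symbol per replicate number) and black bars are group means. The groups overlap for all 5 ratios, and vehicle replicate 3 is the highest for Rian to Meg3 and Neat1 to Malat1 and the lowest for Mirg to Rian.

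Genes with the pattern most like each RNA were found among 8444 genes with a mean of at least 10 TPM, by the mean absolute difference between centred log2(TPM + 1) values over the 6 libraries. Among these, Snhg11 was the nearest gene to Meg3 (0.17) and Meg3 the nearest to Snhg11, although they lie on different chromosomes. Snhg11 was also the nearest to Mirg (0.16), whose host domain it does not share. Mirg, with a mean of 9.25 TPM, fell below the minimum and could not be returned for another gene. By the same measure it lay closer to Snhg11 than Meg3 did. The second nearest to Meg3 was Dlgap2, a postsynaptic scaffold gene (0.18), at 31.5, 91.7 and 65.1 TPM in CerM and 71.5, 56.3 and 33.2 TPM in vehicle, and the second nearest to Snhg11 was Kcnk4, a potassium channel gene (0.18). The nearest to Miat was Mir124a-1hg, the host of a neuronal microRNA (0.31), at 11.3, 22.1 and 16.9 against 13.7, 12.7 and 7.29 TPM, followed by Eml5 (0.33).

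The other neighbours were Bcl7c (0.17) and Amacr (0.17) for Malat1, Adamtsl2 (0.20) for Mirg, and Gpbp1l1 (0.08) and Asxl1 (0.08) for Neat1. For Meg3, Snhg11, Malat1, Mirg and Miat no gene came within 0.1, and 4 did for Neat1. Rian had Zfyve28 (0.03) and Msrb1 (0.03), but 927 genes lay within 0.1 of it, since its values changed little. The rule also returned Gpc5 and Mdp1 for Kcnq1ot1, whose values on this scale hardly moved, with 3161 genes within 0.1.

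Genes of the imprinted domains showed no common direction. Of 10 genes listed for the Dlk1-Dio3 domain, Meg3, Rian and Mirg included, 7 were tested. Among them 4 lay above and 3 below 0 (median 0.10), and limma called 0. Dlk1, the paternally expressed gene for a transmembrane ligand, stood at 6.38, 11.9 and 7.81 TPM in CerM and 4.83, 7.70 and 12.4 TPM in vehicle. Its order differed from that of Meg3, being highest in vehicle replicate 3, where Meg3 was lowest. Dio3, which encodes the thyroid hormone deiodinase at the other end, stood at 3.46 ± 0.80 against 4.28 ± 0.60 TPM (SD, n = 3 each). Rtl1, the paternally expressed retrotransposon-derived gene, was at 0.11 to 0.55 TPM and was not tested.

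In the Kcnq1 domain 7 of 14 listed genes were tested, 5 above and 2 below 0 (median 0.04), and 0 were called. Cdkn1c, a cell cycle inhibitor gene that Kcnq1ot1 silences, stood at 23.1, 3.66 and 27.1 TPM in CerM and 7.37, 4.45 and 34.8 TPM in vehicle. Its 3 highest values fell in the libraries rich in choroid plexus transcripts, and the part of that tissue was not tested. Dhcr7, of cholesterol synthesis, stood at 32.8 ± 5.71 against 25.4 ± 1.39 TPM and Cd81, a tetraspanin gene, at 494 ± 27.0 against 446 ± 51.6 TPM. Of 28 tested genes in a list of other imprinted genes, which held Cdkn1c again, 18 lay above 0 (median 0.03). In it Gnas, the stimulatory G protein gene, stood at 2086 ± 89.4 against 2266 ± 26.1 TPM and Commd1 at 49.9 ± 11.5 against 59.4 ± 5.33 TPM.

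Genes for the proteins of the nuclear bodies were not called either. Of 26 paraspeckle genes 12 lay above and 14 below 0 (median −0.02), and limma called 0. Core genes were at 115 ± 2.32 against 123 ± 8.08 TPM for Sfpq, 136 ± 11.99 against 131 ± 13.6 for Nono and 38.8 ± 5.40 against 43.1 ± 3.79 for Pspc1. The smallest p-values belonged to Ewsr1, an RNA-binding protein gene, at 411 ± 31.5 against 294 ± 46.2 TPM, and Rbm4b, at 18.7 ± 1.93 against 16.3 ± 0.32 TPM. For Ewsr1 the limma p was 0.00509 unadjusted and 0.989 adjusted. The groups did not overlap for 3 of the 26 genes, Ewsr1, Rbm4b and Sfpq, beside 7.3% of all tested genes.

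Of 25 nuclear speckle genes 21 lay above and 4 below 0 (median 0.09), and limma called 0. CerM replicate 2 had the highest score of that list, 0.22, where the other 5 libraries lay between −0.10 and 0.00. The smallest p-values were those of Clk1, a kinase of splicing factors, at 42.2 ± 3.20 against 31.1 ± 6.37 TPM and Sf1, a branch point binder, at 93.7 ± 13.9 against 77.1 ± 4.86 TPM. For both genes the groups did not overlap, as in 7.3% of tested genes.

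Lists for processing and decay of nuclear RNA were split in direction. Of 16 genes tied to the 3′ ends of Malat1 and Neat1 (RNase P, RNase Z and RNA methylation) 7 lay above and 9 below 0 (median −0.07), with Pop5 at 86.6 ± 4.33 against 105 ± 12.6 TPM and Pop1 at 5.48 ± 0.95 against 3.91 ± 1.69 TPM. Of 21 genes of the nuclear exosome and its adaptors 11 lay above and 10 below 0 (median 0.00), with Pabpn1 at 120 ± 10.2 against 106 ± 4.15 TPM and Ncbp2 at 40.2 ± 4.03 against 46.3 ± 4.75 TPM. Of 14 tested genes of imprint maintenance and silencing 11 lay above 0 (median 0.09), with Eed at 15.4 ± 5.41 against 11.3 ± 0.97 TPM and Jarid2, both of Polycomb complex 2, at 48.6 ± 10.3 against 38.3 ± 9.83 TPM. Limma called 0 genes in each of these lists.

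Other long noncoding RNAs did not pass the test either. Of 22 tested, 16 lay above 0 (median 0.05). Mir99ahg, a microRNA host, stood at 8.04, 5.14 and 5.52 TPM in CerM and 3.53, 4.45 and 4.07 TPM in vehicle, and Jpx, an activator of Xist, at 7.26, 5.81 and 8.09 against 5.43, 5.03 and 4.24 TPM. Both had groups without overlap, the only 2 of the 22 to do so, beside 7.3% of all tested genes. Their adjusted p was 0.989 in limma. Among other list genes named above, the groups did not overlap for Dhcr7, Gnas, Pop5 and Pabpn1 either.

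Of 19 tested small nucleolar RNA hosts, Snhg11 included, 7 lay above and 12 below 0 (median −0.05). Dancr stood at 6.74 ± 1.58 against 4.32 ± 1.31 TPM, and Snhg9 stood at 18.3, 9.93 and 14.6 TPM in CerM and 24.6 TPM in vehicle replicate 1 and is listed at 0 in vehicle replicates 2 and 3. The SD of log2(TPM + 1) was larger than that of Snhg11 in 1 of the other 18 hosts, Snhg9, and its median over the 18 was 0.23.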

How the data were processed

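RNA-seq covered 6 hippocampal libraries, for which the labels' protocols name an Illumina TruSeq kit. The authors deposited TPM values with 2 decimals. The submitters' processing notes list HISAT2, StringTie, RSEM and the build GRCm39 without saying which step each served. Library totals ran from 993379 to 995403 TPM, 14546 to 15058 genes reached 1 TPM per library, and no libraries held identical values.

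Genes with a mean of at least 1 TPM (14916) were compared on log2(TPM + 1) by limma 3.58.1 (R 4.3.3) with a variance trend, two-sided and Benjamini-Hochberg adjusted over all tested genes. Fold changes on this scale understate those of low genes. Errors are SDs over libraries or SEs of the fit. The fit code was checked on simulated data with planted changes and independent noise. That simulation held no differences in tissue content and does not bear on the calls made here. A list score averages, over the tested genes of a list, each gene's deviation from its 6-library mean. Genes whose symbol stands on more than 1 row were left out of lists. Named genes are the members, Dlk1, Rtl1, Dio3, Kcnq1, Cdkn1c, Sfpq, Nono and Pspc1, the 2 of smallest unadjusted p in each pathway list and the 2 nearest in pattern to each member; 1 further gene is not reported here. Members and lists were chosen with earlier results of these data known. Sequences came from RefSeq tables on GRCm38.p6. Alternatives changed the pseudocount (0.1, 0.5), minimum, scaling, variance model, libraries, covariates and replicate block. Python 3.11.15 with scipy 1.17.1 was used for permutation tests.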

Additional observations from a re-analysis of the deposited data

How the results depend on the processing

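Limma called 0 genes in each setting with all 6 libraries, and 0 to 7 with 1 library left out: 7 without CerM replicate 3, 1 without CerM replicate 1 or 2 or vehicle replicate 2 or 3. It called 1 without vehicle replicate 1 and CerM replicate 3 together. No member was called in any setting. Neat1, Mirg, Miat and Snhg11 kept a positive log2 fold change in all 21 alternatives each. Sample weights lowered Miat to 0.33, Mirg to 0.17 and Meg3 to 0.068, with Neat1 at 0.45 (unadjusted limma p 0.0254, where 18.1% of all genes were below 0.05). Malat1 turned to −0.12 with sample weights and ran from −0.27 (without vehicle replicate 3) to 0.42 (without CerM replicate 1) with 1 library left out. Meg3 ran from −0.016 to 0.72 and Kcnq1ot1 from −0.0021 to 0.024, both lowest without CerM replicate 2. Rian, near 0, ran from −0.14 to 0.11 and was 0.069 with quantile scaling, 0.0133 and 0.0135 on TPM rescaled without mitochondrial genes or also without the members, 0.078 without vehicle replicate 1 and CerM replicate 3, 0.092 and 0.027 with choroid plexus and neocortex covariates, and 0.21 without the 3 libraries rich in choroid plexus. With 1 library left out, ratio differences ran from −0.62 (without vehicle replicate 1) to −0.071 (without vehicle replicate 3) for Rian to Meg3, from 0.12 to 0.71 (without vehicle replicate 3 and 1) for Mirg to Rian, and from −0.20 to 0.34 (Mirg to Meg3), −0.060 to 0.68 (Neat1 to Malat1) and −0.019 to 0.092 (Kcnq1ot1 to Kcnq1), and the members' share of TPM, 0.0084 percentage points higher in CerM, ran from −0.0028 to 0.0181. With a pseudocount of 0.1 the difference was 0.141 for Mirg to Meg3 (0.079 with 1) and 0.125 for Kcnq1ot1 to Kcnq1 (0.026 with 1). The cause of these turns was not tested. The titles link same-numbered libraries by a replicate number alone and do not say whether they were paired. Their deviations correlated across genes at 0.0083, 0.196 and 0.222, and those of the other pairs at −0.207 to 0.065. With the replicate block limma called 0 genes, 496 at an unadjusted p below 0.05 against 402 without it, and 2 of 7 members were among them (3.33% of all genes): Miat (0.95, unadjusted p 0.0101) and Neat1 (0.38, 0.0347), both with an adjusted p of 0.98. CerM replicate 1 to 3 each correlated best with its own number, vehicle replicate 1 did not. Depth is unknown, and 3 libraries per group limit the precision.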
